A study of Mus musculus with 6 samples.

Results

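A set of 10 genes of the elastic fibre and its microfibrils was followed in RNA from plaque of the aortic arch, comparing mice given ABT263 with mice given vehicle. They were taken by gene symbol (Eln, Fbn1, Mfap4, Mfap5, Ltbp4, Fbln5, Fbln1, Fbln2, Emilin1 and Lox), and all 10 were found among the 24062 symbols of the count table and passed the filter on low counts. The treated group held 3 libraries from mice injected intraperitoneally with ABT263 (navitoclax, an inhibitor of the BCL-2 family that is used to kill senescent cells) at 100 mg/kg daily, dated by the labels to week 1 of low-fat feeding. Its comparison group held 3 libraries from mice that received vehicle, dated by the labels to the same week. All 6 libraries came from knockout mice prone to atherosclerosis, labelled C57BL/6, that had eaten a high-fat diet, TD88137, over 12 weeks, followed by 3 weeks on a low-fat diet. The sources used here do not give the age of the mice, the number of doses or whether each library came from 1 animal. Going by its title, the study asked how senescent cells bear on repair by the smooth muscle cells of the vessel wall.

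Elastic fibres give large arteries their recoil. A core of elastin, secreted by smooth muscle cells as the soluble monomer tropoelastin, is laid onto a scaffold of fibrillin microfibrils, with fibulins and latent TGF-beta binding proteins guiding its deposition and lysyl oxidases cross-linking it. In the artery most of this matrix is made early in life, and in plaque elastases released by macrophages can cut it.

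No gene of the group passed the threshold with ABT263 by the edgeR quasi-likelihood test, and the 10 differences varied in direction and size. The groups overlapped for 9 of the 10 genes, elastin itself among them. Fbln1 (fibulin-1) and Mfap4 (a microfibril-associated protein) stood apart. Fbln1 averaged 119 ± 155 CPM (counts scaled to a common library size with TMM factors) in ABT263 libraries and 11.1 ± 1.70 CPM in vehicle libraries (SD, n = 3 each), and Mfap4 averaged 200.0 ± 154 CPM in ABT263 libraries and 45.8 ± 8.79 CPM in vehicle libraries. In both genes the excess lay in ABT263 replicates 2 and 3, and ABT263 replicate 1 was close to the vehicle libraries or below them.

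The promoters of 2 fibulins are shown because these genes mark the ends of the group: Fbln1 varied most between libraries and Fbln5 (fibulin-5) least. Each is the run of 250 bases before the RefSeq start of the gene, on the gene's own strand, from GRCm38.p6, the assembly that mm10 denotes. The Fbln1 window is chr15:85205699-85205948 on the plus strand and the Fbln5 window chr12:101819120-101819369 on the minus strand. Neither window overlapped an annotated exon, and no base is in capitals because no searched motif was found.
Fbln1: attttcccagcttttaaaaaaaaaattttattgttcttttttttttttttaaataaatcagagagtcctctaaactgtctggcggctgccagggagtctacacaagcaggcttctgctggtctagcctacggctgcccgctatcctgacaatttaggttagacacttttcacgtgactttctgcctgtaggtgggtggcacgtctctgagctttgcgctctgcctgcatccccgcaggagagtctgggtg
Fbln5: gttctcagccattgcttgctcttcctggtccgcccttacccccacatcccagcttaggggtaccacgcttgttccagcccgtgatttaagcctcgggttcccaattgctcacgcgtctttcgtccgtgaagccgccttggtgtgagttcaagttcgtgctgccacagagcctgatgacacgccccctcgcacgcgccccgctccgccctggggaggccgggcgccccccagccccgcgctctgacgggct
G and C made up 46.4% of the Fbln1 window and 65.2% of the Fbln5 window. RefSeq promoter windows, 250 bases before to 50 after a start, were matched for 6 of the 10 genes (10 windows, since some genes have several starts). No window was matched for Eln, Mfap4, Mfap5 or Lox, so the search below does not cover these genes. On both strands, none of the 10 windows held the CArG box bound by serum response factor, GGAATG (a TEAD motif) or TATAAA (the TATA box), of which the last can also lie inside a CArG box. Of 32851 promoter windows in the table, 1.63%, 14.7% and 13.6% held them, in that order.

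Total counts ran from 62930547 to 91688075 in ABT263 libraries and from 67236568 to 110452098 in vehicle libraries, and a count of 0 therefore allowed a level of up to 0.0278 to 0.0480 CPM (3 counts, counting error only). Of the tissue markers, contractile smooth muscle, macrophage, endothelial and cartilage markers were present in all 6 libraries except the cartilage gene Matn3, which had 0 counts in ABT263 replicate 1. Of the 6 libraries 2 stood apart from the rest, ABT263 replicate 2 on the first principal component (47.8% of variance) and vehicle replicate 2 at the opposite end of it and on the second (27.3%). Summed white adipocyte markers reached 5142 CPM in ABT263 replicate 2, against 279.9 and 344 CPM in the other ABT263 libraries and 161 to 357 CPM with vehicle. Summed mesothelial markers reached 487 CPM in the same library, against at most 1.35 CPM in the other ABT263 libraries and 1.81 CPM with vehicle. All 9 adipocyte and all 3 mesothelial markers tested had positive log2 fold changes, and the adipocyte gene Lep had 0 counts in ABT263 replicates 1 and 3 and vehicle replicate 1. Skeletal muscle markers, 8 of 8 positive, summed to 44.2 CPM in ABT263 replicate 3 and to at most 8.88 CPM in every other library. The ribosomal RNA precursor Rn45s took 0.304% to 0.334% of counts with ABT263 and 0.542% to 1.74% with vehicle.

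Counted over all 15222 genes tested, the edgeR quasi-likelihood test called 0 genes at an adjusted p of 0.05 (0%), limma-voom 0 (0%) and DESeq2 153 (1.01%). DESeq2 gave no adjusted p for some of these genes, and its shares count them as not called. At an unadjusted p under 0.05 edgeR listed 1276 genes (8.38%), of which 716 were higher with ABT263 (4.7% of genes tested) and 560 lower (3.68%), limma-voom listed 855 and DESeq2 1718. Of the 10 elastic fibre genes, edgeR and limma-voom called 0 and DESeq2 called 1, Fbln1, against 0.453% of all genes called as higher with ABT263, and edgeR listed 2 at an unadjusted p under 0.05, Fbln1 and Mfap4. Groups did not overlap, with ABT263 higher, for 864 genes (5.68%) over the table and for 1 of the 10, Fbln1. They did not overlap with ABT263 lower for 960 genes (6.31%) and for 0 of the 10. Positive fold changes were found for 8 of the 10 genes, against 7629 of 15222 genes (50.1%), with a median log2 fold change (ABT263 over vehicle) of 0.35, against 0.0008 over all genes tested. Leaving out 1 library moved the median to between 0.051 (without vehicle replicate 2) and 0.71 (without vehicle replicate 3), and the number of positive genes to 6 of 10 and 10 of 10 in the same fits. With Mfap4 left out, 7 of 9 were positive and the median was 0.30. With Fbln1 left out as well, 6 of 8 were positive, the median was 0.29 and the highest value was 0.63.

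**Figure D1:**
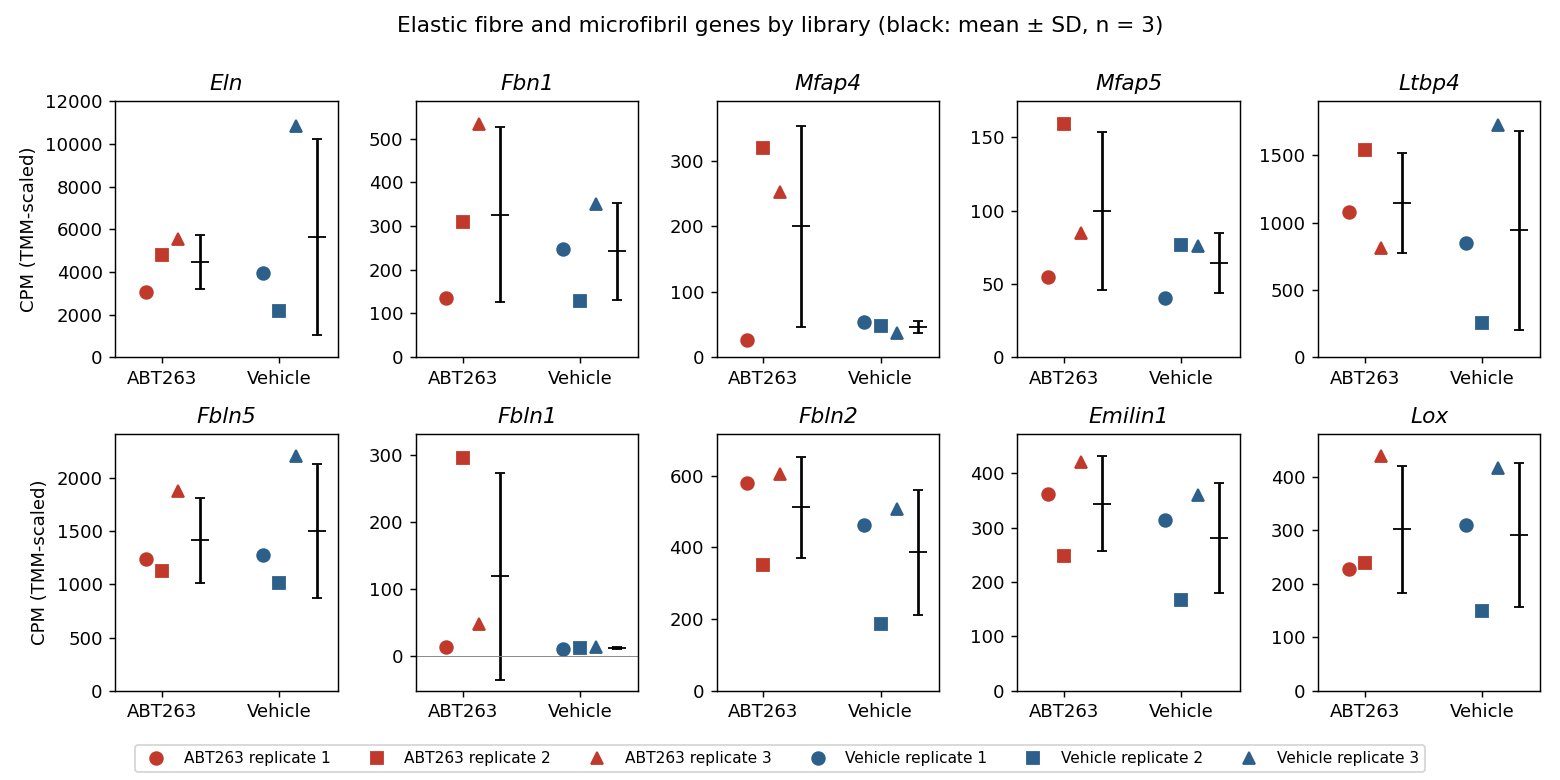
CPM after TMM scaling of each gene in the 3 ABT263 libraries (red, left) and the 3 vehicle libraries (blue, right), each panel with its own linear axis. Symbols mark the replicate, and the black bar gives mean ± SD (n = 3). Mfap4 and Fbln1 show 2 high ABT263 libraries above a tight vehicle group, whereas Eln, at 10869 CPM in vehicle replicate 3, spreads widely within vehicle.

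Elastin carried the largest share of the reads of this group. Eln (chromosome 5, 134702593 to 134747323, minus strand, mm10) stood at 3078, 4779.7 and 5542 CPM in ABT263 replicates 1 to 3, against 3929, 2150.1 and 10869 CPM in vehicle replicates 1 to 3. The ABT263 libraries all lay inside the range of the vehicle libraries, whose replicate 3 was the highest of the 6 and replicate 2 the lowest. Eln took 0.325%, 0.512% and 0.537% of all counts with ABT263 and 0.365%, 0.210% and 1.09% with vehicle. Its log2 fold change was -0.34 (SE 0.66, 95% interval -1.93 to 1.25, adjusted p = 0.936 by the edgeR quasi-likelihood test), an interval wide enough to hold changes in both directions. Without vehicle replicate 3 the log2 fold change was 0.55, so the sign rests on that library. The summed cartilage markers were also highest there, at 2603 CPM in vehicle replicate 3, of which Col2a1 supplied 1776 CPM. The sum was 689 to 1223 CPM with ABT263 and 1452 and 1530.1 CPM in the other vehicle libraries. Of the 7 markers 6 were highest in vehicle replicate 3. Comp was the exception, at 188 CPM in vehicle replicate 3 and highest in ABT263 replicate 3, at 367 CPM. All 6 cartilage markers tested had negative log2 fold changes, and their part in the Eln value was not tested. In bulk plaque, more cells of a type and more RNA per cell cannot be told apart, here and in every result that follows.

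Fibrillin-1, the protein that builds the microfibril backbone, had its highest level in an ABT263 library. Fbn1 (chromosome 2, 125300594 to 125507993, minus strand) stood at 136, 309 and 533 CPM with ABT263 and 247, 129 and 349.9 CPM with vehicle. The lowest libraries of the 2 groups were nearly level, and the groups overlapped. The log2 fold change was 0.43 (SE 0.56, 95% interval -0.91 to 1.78, adjusted p = 0.890 by edgeR), and it was -0.13 without ABT263 replicate 3. In GENCODE M21, exons of the antisense gene Gm9913 covered 20.1% of the exon bases of Fbn1. The annotation and the rule for shared reads behind the counts are not given, so the effect on the Fbn1 count is not known.

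Mfap4, whose product binds elastin and fibrillin and organises the fibre, split the ABT263 libraries. The gene (chromosome 11, 61485431 to 61488900, plus strand) stood at 26.9, 320.5 and 253 CPM in ABT263 replicates 1 to 3, against 53.8, 47.2 and 36.4 CPM with vehicle. ABT263 replicate 1 was thus the lowest of all 6 libraries and replicates 2 and 3 the 2 highest, so the groups overlapped. The log2 fold change was 2.13, a 4.37-fold difference (SE 0.80, 95% interval 0.22 to 4.03, unadjusted p = 0.0338, adjusted p = 0.592 by edgeR; adjusted p = 0.123 by DESeq2). Leaving out ABT263 replicate 2 gave 1.62, and leaving out ABT263 replicate 1 gave 2.64.

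Contractile smooth muscle markers divided the ABT263 libraries in the same way as Mfap4. The 10 markers, among them Acta2, Myh11 and Cnn1, summed to 2499.6, 16420.0 and 10243 CPM with ABT263 and to 2732, 3051 and 3764 CPM with vehicle. All 10 had a positive log2 fold change, with a median of 1.76, and none was at 0 in any library. Set against that sum, a ratio chosen after the values were seen, Mfap4 came to 1.08%, 1.95% and 2.47% with ABT263 and to 1.97%, 1.55% and 0.967% with vehicle. Expressed in this way the groups overlapped, with the lowest value in a vehicle library and the highest in an ABT263 library. The part of these cells in the Mfap4 value was not tested further. Among the genes whose log2 CPM profile over the 6 libraries, centred on its mean, lay nearest to that of Mfap4, of 11809 candidates, were Adra1d (an alpha-1 adrenergic receptor, Euclidean distance 0.537) and Vldlr (a lipoprotein receptor, 0.723). Adra1d, for instance, stood at 1.36, 11.6 and 9.73 CPM with ABT263 and at 2.62, 2.52 and 1.48 CPM with vehicle. The profiles share the same 6 libraries and their depth, and with so few points many genes can lie close.

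The library with the most contractile marker RNA was not the one with the most elastin. Eln was highest in vehicle replicate 3, whereas the contractile sum was highest in ABT263 replicate 2. Next in both came ABT263 replicate 3, and then ABT263 replicate 2 for Eln and vehicle replicate 3 for the contractile sum. Within ABT263 both were lowest in replicate 1, and within vehicle both were highest in replicate 3. Nearest to the Eln profile were Rab27b (a small GTPase of secretory vesicles, distance 0.530), Kif26b (a kinesin family member, 0.626) and Kcnt2 (a potassium channel subunit, 0.663), with log2 fold changes of 0.0062, -0.023 and 0.099.

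**Figure D2:**
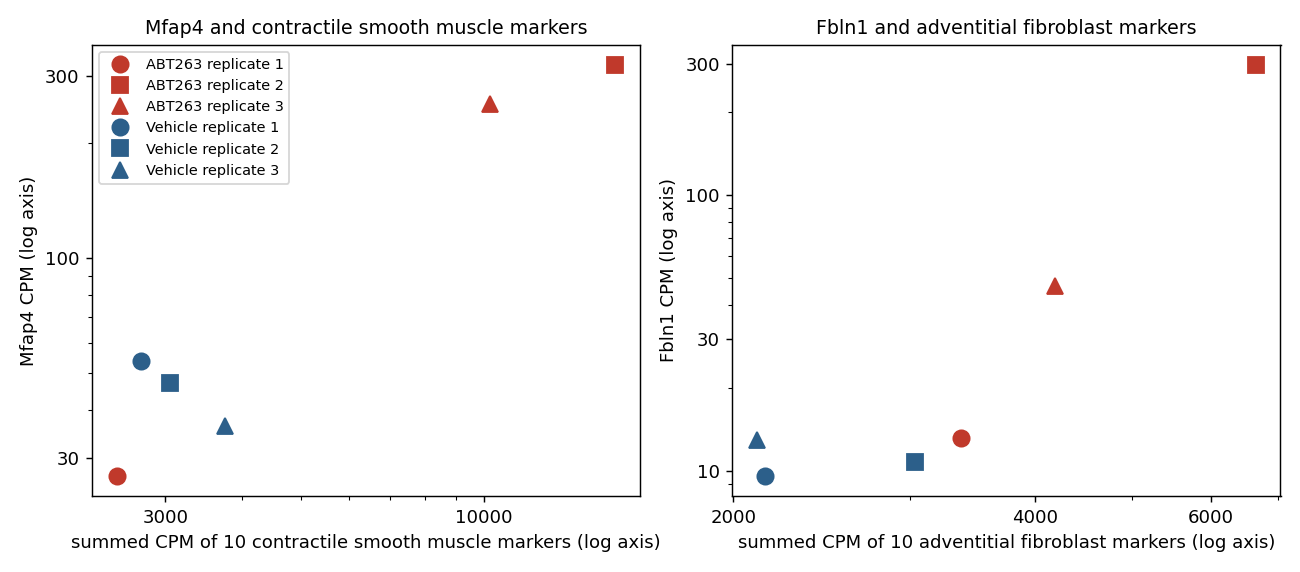
Left, Mfap4 CPM against the summed CPM of 10 contractile smooth muscle markers, and right, Fbln1 CPM against the summed CPM of 10 adventitial fibroblast markers, both axes logarithmic, 1 symbol per library (red ABT263, blue vehicle). ABT263 replicates 2 and 3 lie at the upper right in both panels, and ABT263 replicate 1 lies near the vehicle libraries.

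The other microfibril genes, Mfap5 and Ltbp4, showed overlapping groups. Mfap5 (chromosome 6, 122505845 to 122529290, plus strand), which encodes a small glycoprotein bound to fibrillin, stood at 54.8, 159 and 84.7 CPM with ABT263, against 40.4, 76.3 and 76.2 CPM with vehicle. The 2 highest libraries were from ABT263, and the lowest was from vehicle. Its log2 fold change was 0.63 (SE 0.44, 95% interval -0.43 to 1.69, adjusted p = 0.744 by edgeR), and 0.12 without ABT263 replicate 2. Ltbp4 (chromosome 7, 27305136 to 27337692, minus strand), a latent TGF-beta binding protein that guides fibulin-5 and elastin to microfibrils, stood at 1076, 1541 and 808 CPM with ABT263, against 851, 251 and 1722 CPM with vehicle. Both the highest and the lowest level were in vehicle libraries, replicates 3 and 2. The log2 fold change was 0.28 (SE 0.66, 95% interval -1.31 to 1.87, adjusted p = 0.952 by edgeR), 1.05 without vehicle replicate 3 and -0.17 without vehicle replicate 2. Endothelial markers were lowest in the same vehicle library as Ltbp4, with summed levels of 1614 to 4779 CPM with ABT263 and of 3216, 378 and 4615 CPM in vehicle replicates 1 to 3. Of the 6 endothelial markers 5 had positive log2 fold changes and none was at 0, and their part in the Ltbp4 value was not tested.

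Among the proteins that help assemble the fibre, Fbln1 had the largest difference of the 10 genes and the most uneven one. Fbln1 (chromosome 15, 85205949 to 85286535, plus strand), whose product is a glycoprotein of elastic tissue and basement membranes, stood at 13.2, 296 and 47.1 CPM in ABT263 replicates 1 to 3, against 9.62, 10.8 and 12.96 CPM with vehicle. The groups did not overlap, but ABT263 replicate 1 and vehicle replicate 3 were almost equal, and ABT263 replicate 2 was far above every other library. The log2 fold change was 3.42, a 10.7-fold difference (SE 1.08, 95% interval 0.84 to 5.99, unadjusted p = 0.0168, adjusted p = 0.592 by edgeR). DESeq2 called it (log2 fold change 3.38, adjusted p = 0.0241), limma-voom did not (adjusted p = 0.834), and without ABT263 replicate 2 the log2 fold change was 1.44.

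Summed markers of adventitial fibroblasts, fat and mesothelium were highest in that same library, as were those of contractile smooth muscle. The contractile sum, given above, placed ABT263 replicates 2 and 3 above the other libraries, as Fbln1 did. Among the 10 genes, Mfap4 had the profile nearest to that of Fbln1, at a distance of 2.07. Summed over 10 genes, the adventitial fibroblast markers stood at 3375, 6644 and 4191 CPM with ABT263 and at 2153, 3034 and 2113 CPM with vehicle, 9 of the 10 with a positive log2 fold change and none at 0. Of these 10 markers 7 were highest in ABT263 replicate 2, but the list was not uniform. Clec3b, for instance, stood at 5.37, 263 and 10.03 CPM with ABT263 and at most 6.07 CPM with vehicle, whereas Lum was lowest in that library, at 1268, 539 and 2756 CPM with ABT263 and 940.2, 1301 and 951 CPM with vehicle. Cd34 was highest in ABT263 replicate 1, and Ly6a in vehicle replicate 2. Relative to the summed fibroblast markers, a ratio also chosen after the values were seen, Fbln1 was 0.391%, 4.46% and 1.12% with ABT263. With vehicle it was 0.447%, 0.356% and 0.613%. ABT263 replicates 2 and 3 thus stayed the highest by this ratio, whereas replicate 1 lay within the vehicle range. In ABT263 replicate 2 the sum was carried mainly by Gsn, at 3915 CPM, with Lum, Dpt and Pi16 at 539, 537 and 488 CPM. In every other library Lum and Gsn were the highest of the list. The ratio therefore gives little weight to markers such as Clec3b. For Mfap5 the same ratio was 1.62%, 2.40% and 2.02% with ABT263 and 1.88%, 2.52% and 3.61% with vehicle, with groups that overlapped. The part of these cell types in the values of Fbln1 and Mfap5 was not tested further.

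Fbln5, the fibulin that tethers elastin to cells and microfibrils, was the steadiest gene of the group. It (chromosome 12, 101746565 to 101819055, minus strand) stood at 1241, 1124 and 1874 CPM with ABT263 and at 1276, 1013 and 2211 CPM with vehicle. All ABT263 libraries lay inside the vehicle range, and the highest library exceeded the lowest 2.18-fold, against 30.8-fold for Fbln1. Its log2 fold change was -0.086 (SE 0.41, 95% interval -1.06 to 0.89, adjusted p = 0.979 by edgeR), 0.058 without ABT263 replicate 2 and 0.30 without vehicle replicate 3.

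Fbln2 (fibulin-2) and Emilin1 (which sits between elastin and the microfibril and restrains TGF-beta processing) had the most similar profiles of any pair among the 10 genes, at a distance of 0.384. Fbln2 (chromosome 6, 91212455 to 91272540, plus strand) stood at 581, 349.7 and 605 CPM with ABT263 and at 463, 187 and 508 CPM with vehicle. Emilin1 (chromosome 5, 30913402 to 30921277, plus strand) stood at 363, 248 and 422 CPM with ABT263 and at 315, 167 and 360.4 CPM with vehicle. In both genes ABT263 replicates 1 and 3 were the highest libraries and vehicle replicate 2 the lowest, while ABT263 replicate 2 lay between the vehicle libraries. The log2 fold changes were 0.41 for Fbln2 (SE 0.43, adjusted p = 0.855 by edgeR) and 0.30 for Emilin1 (SE 0.36, adjusted p = 0.876 by edgeR). Without vehicle replicate 2 they came to 0.075 and 0.027.

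Lox, the lysyl oxidase that cross-links elastin and collagen, averaged 302 ± 118 CPM with ABT263 and 292 ± 134 CPM with vehicle (SD, n = 3 each). It (chromosome 18, 52516067 to 52529867, minus strand) stood at 227.2, 239 and 438 CPM with ABT263 and at 310.3, 149 and 416 CPM with vehicle, with replicate 3 the highest in each group. The groups overlapped, and vehicle replicate 2 was the lowest library. The log2 fold change was 0.049 (SE 0.44, 95% interval -1.01 to 1.11, adjusted p = 0.990 by edgeR), and its sign turned without ABT263 replicate 3 (-0.32) or without vehicle replicate 2 (-0.27).

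**Figure D3:**
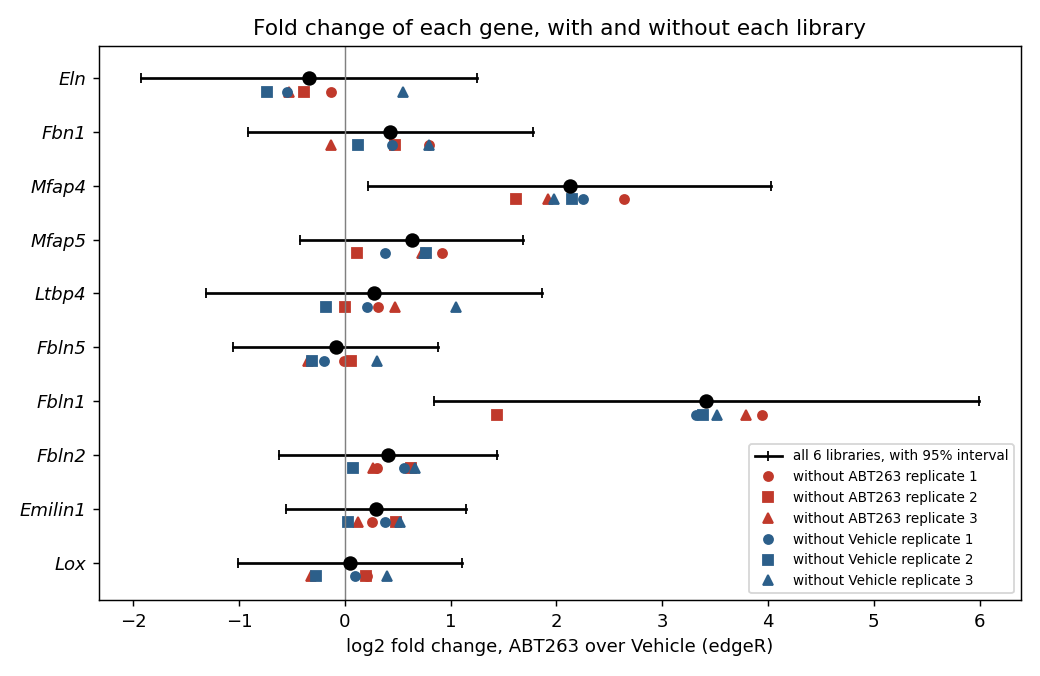
Log2 fold change, ABT263 over vehicle, of each gene over all 6 libraries (black point, bar the 95% interval) and with 1 library left out (coloured symbols under it, red for an ABT263 and blue for a vehicle library). The intervals of Mfap4 (0.22 to 4.03) and Fbln1 (0.84 to 5.99) lie above 0 before adjustment over all genes, and the Fbln1 value is 1.44 without ABT263 replicate 2.

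Seen by library, 7 of the 10 genes were lowest in vehicle replicate 2 (the library with the highest share of Rn45s), 2 in vehicle replicate 1 and 1 in ABT263 replicate 1. The highest levels were shared by ABT263 replicate 3 (4 genes, Fbn1, Fbln2, Emilin1 and Lox), ABT263 replicate 2 (3 genes, Mfap4, Mfap5 and Fbln1) and vehicle replicate 3 (3 genes, Eln, Ltbp4 and Fbln5). Together the 10 genes took 0.717%, 1.00% and 1.03% of all counts with ABT263, against 0.697%, 0.408% and 1.66% with vehicle. Their summed level was 8923 ± 1944 CPM with ABT263 and 9412 ± 6409.6 CPM with vehicle, and 8723 ± 1814 CPM with ABT263 and 9366 ± 6417 CPM with vehicle when Mfap4 was left out. This sum is mostly elastin, which made up 45.3% to 52.2% of the counts of the 10 genes with ABT263 and 51.4% to 65.6% with vehicle.

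Relative to Eln in the same library, which no scaling of library size can alter, Mfap4 came to 0.874%, 6.70% and 4.56% with ABT263 and 1.37%, 2.19% and 0.335% with vehicle. Fbln1 came to 0.429%, 6.20% and 0.849% of Eln with ABT263 and 0.245%, 0.502% and 0.119% with vehicle. Lox came to 7.38%, 5.01% and 7.90% with ABT263 and 7.90%, 6.92% and 3.82% with vehicle. The groups overlapped in all of these ratios, and the ABT263 libraries 2 and 3 held the 2 highest ratios for Mfap4 and Fbln1 but not for Lox. These ratios are of CPM and were not corrected for gene length.

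Compared per kilobase of annotated exon, elastin was first in every library. Its median over the 6 libraries was 538 CPM per kilobase, followed by Fbln5 (182), Ltbp4 (149), Fbln2 (76.2), Emilin1 (68.4), Lox (57.5), Mfap4 (26.3), Fbn1 (22.9), Mfap5 (21.2) and Fbln1 (2.99). Eln exceeded Fbln5 and Ltbp4 exceeded Fbln2 in 6 of 6 libraries. Fbln5 and Ltbp4, Fbln2 and Emilin1, Mfap4 and Fbn1, and Mfap5 and Fbln1 kept their order in 5 of 6, and Lox and Mfap4 in 4 of 6. Emilin1 against Lox, and Fbn1 against Mfap5, were in this order in only 3 of 6 libraries, so their ranks were not separated. Mfap4 ran from 13.99 to 167 CPM per kilobase, both ends being ABT263 libraries. Exon lengths count all annotated exons of a gene, which overstates the length of transcripts that use fewer.

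**Figure D4:**
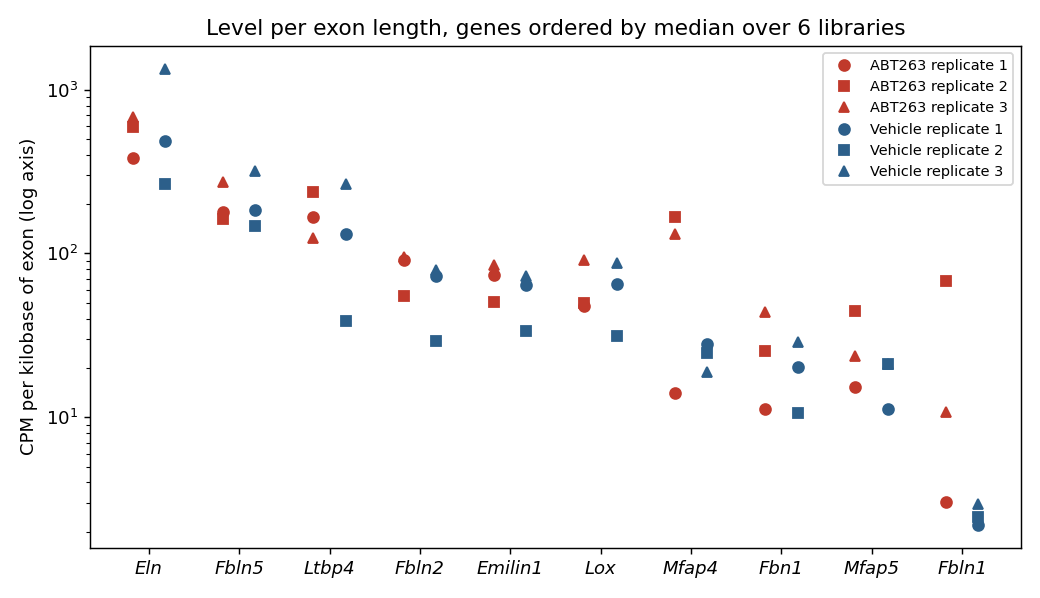
CPM per kilobase of annotated exon (logarithmic axis) of each gene in the 3 ABT263 libraries (red, left of each gene) and the 3 vehicle libraries (blue, right), with genes ordered by their median over the 6 libraries. Eln lies highest, at a median of 538, and Fbln1 lowest, at 2.99, with ABT263 replicate 2 at 67.8.

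A wider list of 36 genes, tied to the pathway by role or by name, was read from the same fit. It held other fibrillins, microfibril proteins and their ADAMTS-like binders, further fibulins, lysyl oxidases and their activators, chaperones, receptors and elastases. Mfap1a, Mfap3 and Mfap3l were included as microfibril genes by their names, and their part in the fibre was not tested. Of the 36, 35 passed the filter on low counts. The edgeR quasi-likelihood test called 0 of the 35, as did limma-voom and DESeq2. DESeq2 gave no adjusted p for Elane and Adamts17, so it could not call them. By edgeR 4 of the 35 had an unadjusted p under 0.05 (the share over all genes being 8.38%, as above). Positive log2 fold changes were found for 20 of the 35 and negative ones for 15, with a median of 0.11. Without 1 library that median ran from -0.054 (vehicle replicate 2) to 0.25 (ABT263 replicate 2). Groups did not overlap for 2 genes with ABT263 higher, against 5.68% of all genes, and for 2 with ABT263 lower, against 6.31%, so both counts were near the background.

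Of the 4 genes with the smallest p, 3 lay on the higher side. Adamtsl4, an ADAMTS-like protein that binds fibrillin microfibrils, stood at 40.2, 58.7 and 53.2 CPM with ABT263 and at 28.7, 28.6 and 37.8 CPM with vehicle. The groups did not overlap and no single library stood out, and the log2 fold change was 0.68 (SE 0.21, unadjusted p = 0.0166, adjusted p = 0.592 by edgeR). Efemp1 (fibulin-3) stood at 45.6, 153 and 25.7 CPM with ABT263 and at 23.4, 9.71 and 16.2 CPM with vehicle. ABT263 replicate 2 was again the highest library, and the log2 fold change of 2.19 (SE 0.70, adjusted p = 0.592 by edgeR) came to 1.13 without it. Thsd4, an ADAMTS-like protein that promotes fibrillin-1 assembly, stood at 18.7, 172 and 107 CPM with ABT263 and at 23.5, 13.8 and 31.2 CPM with vehicle. Like Mfap4 it was high in ABT263 replicates 2 and 3, while replicate 1 lay inside the vehicle range, and its log2 fold change was 2.12 (SE 0.76, adjusted p = 0.592 by edgeR), or 1.46 without ABT263 replicate 2. On the lower side was Elane, neutrophil elastase, with 2, 7 and 4 counts with ABT263 and 12, 36 and 21 counts with vehicle, a log2 fold change of -2.22 (SE 0.73, adjusted p = 0.592 by edgeR) at no more than 0.334 CPM in any library.

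None of the other relatives of the 10 genes passed the test. Ltbp1, a relative of Ltbp4, stood at 102, 339.9 and 336 CPM with ABT263 and at 146.7, 96.0 and 171 CPM with vehicle, a log2 fold change of 0.91 (SE 0.48, adjusted p = 0.653 by edgeR), while Ltbp2 and Ltbp3 had 0.015 and 0.20. Among the lysyl oxidase family, Loxl1, which is required to maintain elastic fibres in mice, stood at 85.0, 262 and 224 CPM with ABT263 and at 95.3, 134 and 158 CPM with vehicle, a log2 fold change of 0.56 (SE 0.43, adjusted p = 0.776 by edgeR), which came to 0.26 without ABT263 replicate 2 and 0.91 without ABT263 replicate 1. Loxl2, Loxl3 and Loxl4 had log2 fold changes of -0.051, -0.20 and 0.22, each with overlapping groups, and Loxl4 came to 0.028 without vehicle replicate 2. Efemp2 (fibulin-4), which brings lysyl oxidase to elastin, had 0.40 (SE 0.24, adjusted p = 0.688 by edgeR), or 0.23 without ABT263 replicate 3, and Mfap2, the close relative of Mfap5, had -0.030. Fbn2, the fibrillin of the embryo, had 0, 2 and 10 counts with ABT263 and 6, 4 and 21 counts with vehicle, and was the 1 gene of the list left out by the filter.

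Of the 6 elastase genes in the list none passed the test, and the 3 not described further here, Ctsk, Mmp9 and Mmp2, had log2 fold changes of 0.013, -0.055 and -0.10. Mmp12, macrophage elastase, stood at 4799, 654 and 1982 CPM with ABT263 and at 4391, 2152 and 2051 CPM with vehicle (log2 fold change -0.21, SE 0.74). Ctss, cathepsin S, stood at 3134, 1165 and 3035 CPM with ABT263 and at 4561, 4819.8 and 3280.0 CPM with vehicle, groups that did not overlap (log2 fold change -0.79, SE 0.48, adjusted p = 0.696 by edgeR). Both were lowest in ABT263 replicate 2, where the 10 macrophage markers also had their lowest sum, at 7502, 3645 and 6951 CPM with ABT263 and 12357, 15183 and 7779 CPM with vehicle. All 10 macrophage markers had a negative log2 fold change and none was at 0. Their part in the elastase values was not tested.

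**Figure D5:**
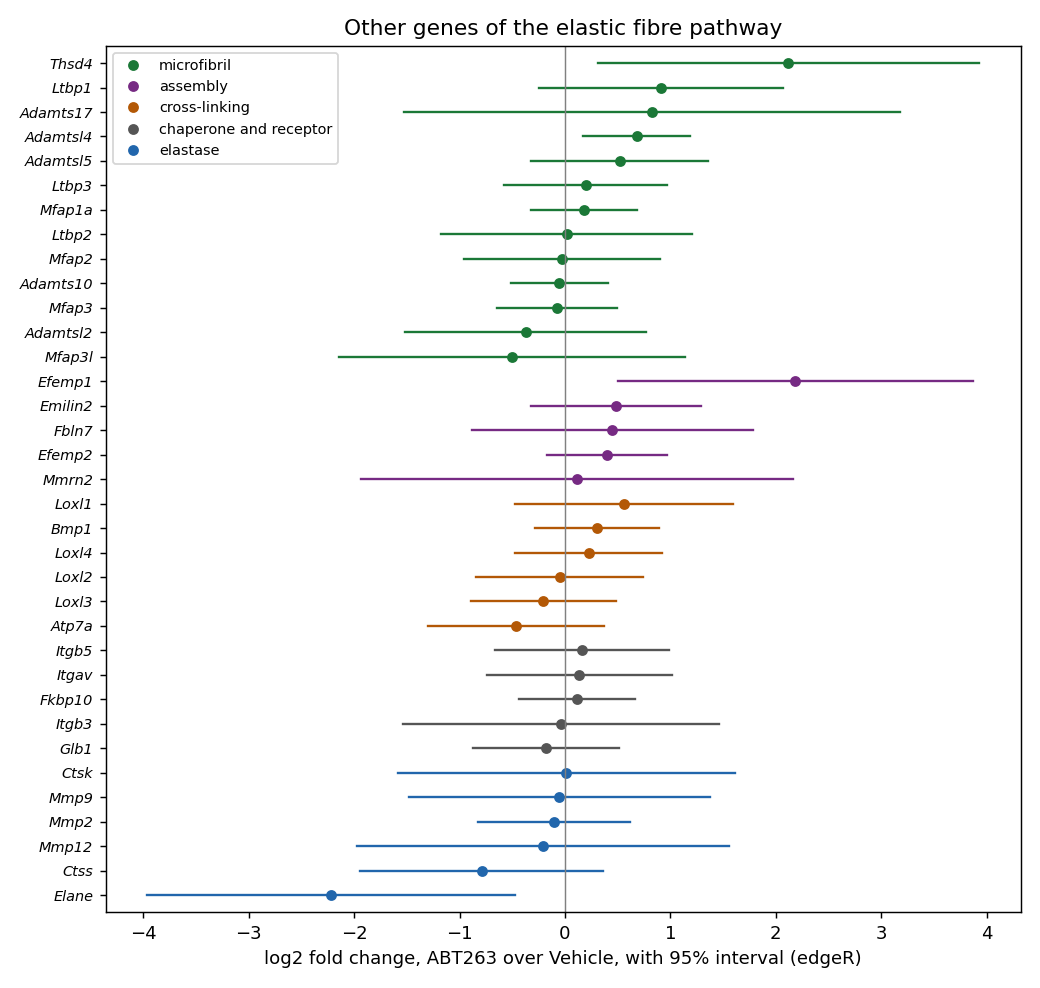
Log2 fold change, ABT263 over vehicle, of the 35 genes of the wider list that were tested, with 95% intervals from edgeR. Colours group the genes by the role assigned to them, for Mfap1a, Mfap3 and Mfap3l by name. The intervals of Thsd4, Adamtsl4 and Efemp1 lie above 0 and that of Elane below it before adjustment over all genes, and no gene passed after it.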

How the data were processed

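RNA was sequenced from 3 ABT263 and 3 vehicle samples of aortic arch plaque. Per the labels' protocols, RNA was extracted with the RNeasy Micro kit and libraries were made from 100 to 200 ng by a TruSeq v2 protocol, which does not mark the strand. The authors deposited raw counts per gene symbol. Per the submitters' processing notes, the build was mm10 and the tools included featureCounts 1.4.6, Subread, Bowtie2 2.2.6 and TopHat2 2.0.14. The sources used here do not give the annotation, strand setting or rule for shared reads. Groups came from the sample titles, replicates were numbered in accession order, and nothing says that libraries came from separate animals, so p-values reflect only the spread among these libraries, some of which may be technical.

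Counts were analysed in R 4.3.3. Genes passed filterByExpr (minimum count 10, minimum total 15), libraries were scaled by TMM, and edgeR 4.0.16 (glmQLFit, glmQLFTest, group alone, 4 residual degrees of freedom) was fitted over 15222 genes with Benjamini-Hochberg adjustment and a threshold of 0.05. The standard error is the absolute log2 fold change over the square root of F. DESeq2 1.42.0 and limma-voom (limma 3.58.1), other scalings, no filter and leaving out libraries were tried, and the procedure was tested on simulated data. Members and lists were chosen with earlier results of these data known. Named genes were the 10 members, the 4 of smallest p in the wider list, the lysyl oxidase paralogs, Fbn2, Mfap2 and Efemp2, and the 3 nearest profiles to Eln and Mfap4 (log2 CPM, prior count 2, mean of at least 1). Of these profiles 1 is not reported here, nor is the gene knocked out in all mice. Ltbp1 to Ltbp3, the elastases other than Elane, and the markers Clec3b, Lum, Cd34 and Ly6a were named after their values were seen. Positions and exon lengths came from GENCODE M21. Exons of Eln (3.30% of bases), Fbn1, Mfap4 (4.63%) and Lox (0.628%) overlapped antisense genes, so their counts are uncertain. Related genes of these families may share reads.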

Additional observations from a re-analysis of the deposited data

How the results depend on the processing

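Where edgeR called 0 genes, DESeq2 called 153 genes over the table and 1 of the 10 members (Fbln1), and no other alternative tried called a member. The median log2 fold change over the members ranged from 0.051 to 0.71 when 1 library was left out (without vehicle replicate 2 and without vehicle replicate 3), from 0.027 to 0.66 without Mfap4, and from -0.054 to 0.25 over the wider list. Each of these differed from the full value by less than the spread between replicates (0.57, 0.58 and 0.27 in the same order). Leaving out 1 of 3 libraries can hardly move a value by more than that spread, so this comparison does not show that the medians are stable. Leaving out vehicle replicate 2 and ABT263 replicate 2 together, an alternative chosen after seeing the data, gave members' medians of 0.19 and, without Mfap4, 0.17.

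Of 260 values of 20 named genes under the alternatives, 240 kept their direction and their side of the threshold, 1 passed it (Fbln1 by DESeq2) and 19 changed sign. With 1 library left out, Eln ranged from -0.73 to 0.55, Fbn1 from -0.13 to 0.80, Ltbp4 from -0.17 to 1.05, Fbln5 from -0.34 to 0.30, Lox from -0.32 to 0.40, Mfap2 from -0.49 to 0.21, Loxl2 from -0.33 to 0.17 and Loxl3 from -0.53 to -0.0058. Without vehicle replicate 2 and ABT263 replicate 2 together, Ltbp4 was -0.45, Lox -0.13, Loxl3 0.13, Eln -0.78 and Mfap2 -0.70. With library totals alone, Loxl2 was 0.028 and Mfap2 0.080, and the median over all genes moved to 0.092. The cause of these changes was not tested. Mfap4 stayed between 1.60 and 2.64, Fbln1 between 1.41 and 3.94, Adamtsl4 between 0.49 and 0.82 and Efemp1 between 0.85 and 2.59 under every alternative tried, with adjusted p of 0.111 to 1.00 for Mfap4 and 0.0241 to 1.00 for Fbln1. No paired analysis was possible because the labels give no replicate numbers that groups share.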
